A study of Mus musculus with 8 samples.

Results

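Expression of 10 genes of bone morphogenetic protein (BMP) signalling was examined in mouse aortic smooth muscle cells that had been infected with 1 of 2 adenoviruses and loaded with cholesterol. The genes were the ligands Bmp2, Bmp4 and Bmp6, the receptor gene Bmpr2, the response genes Id1, Id2, Id3 and Id4, and the inhibitory Smad genes Smad6 and Smad7. They were listed by name and found through their Entrez identifiers. All 10 were measured, each by 1 probe set, among the 24704 genes of the arrays. No filter on dim genes was applied, so none was left out of the tests.

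BMPs are secreted ligands of the TGF-beta superfamily. They bind complexes of type I and type II receptors, which phosphorylate Smad1, Smad5 and Smad9, and these enter the nucleus with Smad4. The Id genes are the best known targets of this signal. They encode helix-loop-helix proteins without a DNA-binding region, which hold E proteins in inactive pairs. Smad6 and Smad7 are induced as well and feed back on the receptors, Smad6 mainly on BMP signalling and Smad7 on both BMP and TGF-beta signalling. In the arterial wall the pathway is known for its part in smooth muscle differentiation and in vascular calcification, and mutations of BMPR2 cause heritable pulmonary arterial hypertension.

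The cells were murine aortic smooth muscle cells grown in DMEM with FCS. All cells were exposed to an adenovirus for 24 h and afterwards to cholesterol at 10 µg/ml for 72 h, so the control cells carried both a virus and the cholesterol load. The virus was titled AdPl on 4 arrays, labelled as controls, and AdN5 on the other 4, labelled as overexpressing NFAT5, a transcription factor of the osmotic stress response. No strain, age or viral promoter is given in the sources used here. Since nothing says that the replicates are separate cultures, each p-value reflects the scatter of these 8 samples, part or all of which may be technical.

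Nfat5 itself was read at a mean log2 level of 7.16 ± 0.089 (SD, n = 4) on the control arrays and of 6.97 ± 0.072 on the arrays labelled NFAT5. Its log2 fold change was -0.19 ± 0.078 (SE; adjusted p = 0.360 in limma, exact two-sided permutation p = 0.0571). The measured transcript was thus not higher on the arrays labelled as overexpressing it, and the groups overlapped. Whether its probe set reads the transcript of the virus is not given in the sources used here. The groups are therefore called control and NFAT5-labelled, and every direction below is drawn from the labels. Of 8 smooth muscle markers 0 were called, with Acta2 at 12.04, Tagln at 8.39 and Myh11 at 5.32 on the control arrays. Myocd (3.30) and Des (3.73) lay below the array median of all probe sets (3.76). The list mean ran from 6.46 to 6.48 on the control and from 6.43 to 6.61 on the NFAT5-labelled arrays. Acta2 was lower (log2 fold change -0.30) and Cnn1 higher (0.33) on every NFAT5-labelled array, and the other markers of this list overlapped. Over all genes 4.56% were lower and 4.22% higher on every such array than on any control array. Among markers of other cells, 3 macrophage markers were called higher at an adjusted p under 0.05 in limma, as were 0.364% of all genes. The mean of the 6 measured macrophage markers, of 7 listed, ran from 6.33 to 6.52 on the control and from 6.73 to 6.89 on the NFAT5-labelled arrays, with Adgre1, Cd68 and Laptm5 called higher and Ptprc below the array median. Of 7 fibroblast or adventitial markers 6 were measured, and their mean ran from 7.23 to 7.37 and from 6.96 to 7.13, with 0 called. Their control levels reached from 4.41 for Pi16 to 12.20 for Dcn. All 6 had fold changes below 0, and 3 were lower on every NFAT5-labelled array, as were 4.56% of all genes. All 6 endothelial markers were measured, with list means of 4.53 to 4.77 and 4.64 to 4.81 and 0 called. Cdh5 was higher on every NFAT5-labelled array (log2 fold change 0.35), and the other endothelial markers overlapped. Kdr and Vwf lay below the array median. The part of these cell types in the results below was not tested. In bulk RNA, fewer cells of a type and less RNA per cell cannot be told apart.

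The upstream sequences of Id2 and Id3 are shown because these were the Id genes that lay apart between the groups, in opposite directions. Each line gives the 250 bases before the annotated start of the gene, 5′ to 3′ on the gene's own strand, from RefSeq on GRCm38.p6. The Id3 window is chr4:136143572-136143821 (plus strand) and the Id2 window is chr12:25096093-25096342 (minus strand). Capitals mark letters known from BMP response elements, namely CAGAC on either strand (GTCTG where it lies on the opposite one) and the palindrome GGCGCC.
Id3: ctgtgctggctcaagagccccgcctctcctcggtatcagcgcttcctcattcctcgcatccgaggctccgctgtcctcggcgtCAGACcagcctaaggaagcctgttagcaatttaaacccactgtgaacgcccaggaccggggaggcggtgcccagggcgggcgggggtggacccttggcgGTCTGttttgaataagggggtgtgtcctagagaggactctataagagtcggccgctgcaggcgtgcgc
Id2: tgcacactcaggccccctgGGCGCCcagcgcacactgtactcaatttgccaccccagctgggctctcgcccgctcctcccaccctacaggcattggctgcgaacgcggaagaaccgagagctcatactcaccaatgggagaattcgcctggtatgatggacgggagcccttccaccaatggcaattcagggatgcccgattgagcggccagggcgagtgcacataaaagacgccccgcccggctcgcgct

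The Id3 window held 2 matches to CAGAC, 1 on each strand, beginning 167 and 68 bases before the start, and 0 to GGCGCC. In the Id2 window there was 1 match to GGCGCC, beginning 231 bases before the start, and 0 to CAGAC. Both strands were searched, and the motifs do not overlap each other in these windows. Windows were used for 7 of the 10 genes, those of Bmp4, Bmp6, Bmpr2, Id2, Id3, Id4 and Smad6. Those of Bmp2, Id1 and Smad7 were not searched. Among them 3 held GGCGCC (Bmpr2, Id2 and Id4) and 2 held CAGAC (Bmp6 and Id3). Over 32851 promoter windows of the same length, 9.59% held GGCGCC and 42.2% held CAGAC. The palindromic Smad element GTCTAGAC was found in 0 of the 7 windows and in 0.167% of all windows. The core letters of the element bound by NFAT5, TGGAAA, were found in 0 of the 7 windows and in 18.6% of all windows. These matches describe letters in a short window and do not mark binding sites.

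Of the 10 genes, 1 was called between the groups, namely Id3, which fell in the NFAT5-labelled arrays. The call was an adjusted p under 0.05 in limma over all genes tested, which 0.777% of all genes passed, 0.413% as lower and 0.364% as higher. The other 9 genes did not pass, and 5 of the 10 had an unadjusted p under 0.05, against 12.5% of all genes. The groups lay apart with no overlap for 5 genes, as they did for 8.78% of all genes. The 10 genes were chosen with earlier results of these data known, so such shares do not test them as a set. Smad7 and Id2 were higher on every NFAT5-labelled array than on any control array, as were 4.22% of all genes, and Id3, Bmp4 and Bmp2 were lower on every one, as were 4.56%. Bmp6, Bmpr2, Smad6, Id1 and Id4 overlapped. Fold changes were above 0 for 3 genes and below 0 for 7, with a median of -0.11 on the log2 scale against 0.0042 over all genes. Their median absolute size was 0.24 against 0.10 over all genes. By mean level the 10 genes lay between percentiles 51.0 (Bmp2) and 95.2 (Bmpr2) of all genes. No background of like level was used. All changes of the 10 genes were below 1.5-fold, and 168 called genes, Id3 included, had changes at least as large as that of Id3.

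**Figure D1:**
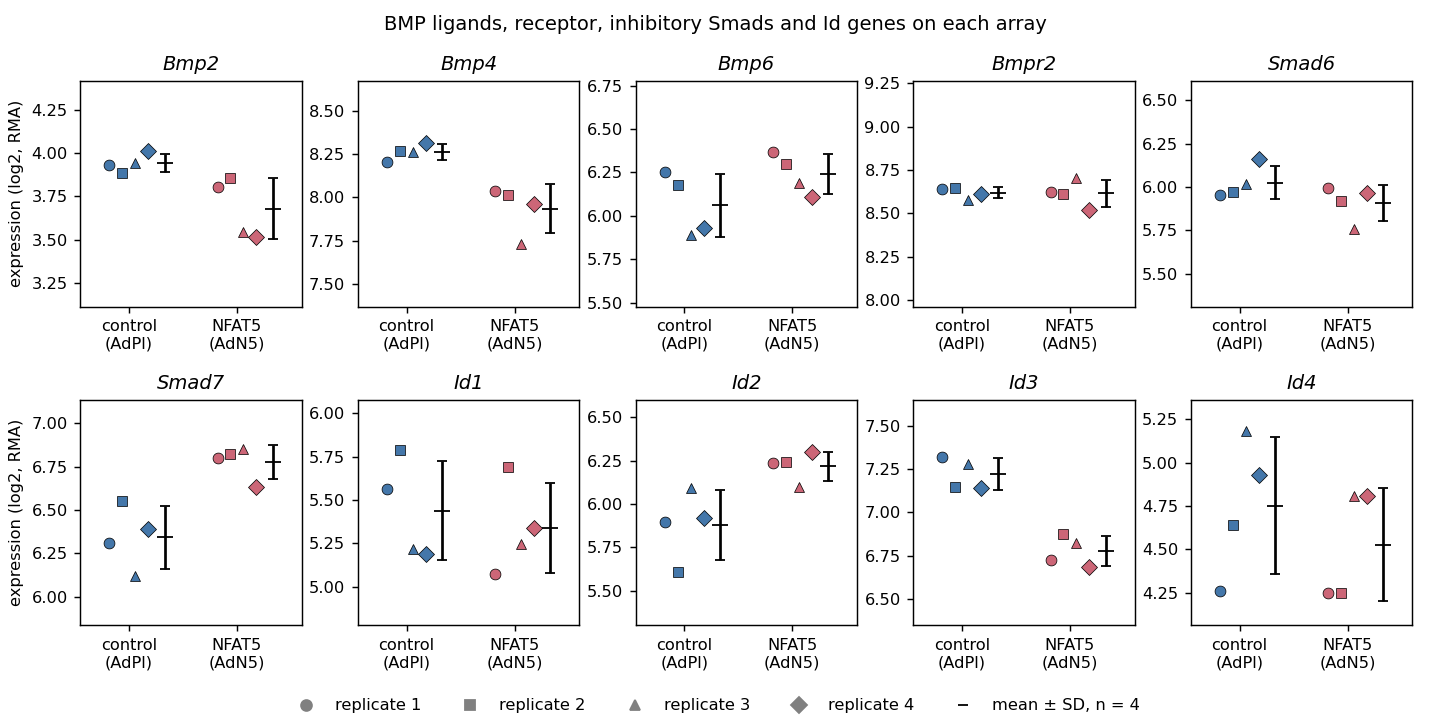
Expression (log2, RMA) of the 10 genes on each of the 8 arrays, with 1 panel per gene, a marker shape per replicate number, and the mean ± SD of 4 arrays in black. All panels span the same range of log2 units: Id3, Bmp4 and Bmp2 are lower and Smad7 and Id2 higher on every NFAT5-labelled array, while Id1 and Id4 spread widely within both groups.

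Among the ligands, Bmp4 was read at 8.20, 8.27, 8.26 and 8.31 on control arrays 1 to 4 and at 8.03, 8.02, 7.73 and 7.96 on NFAT5-labelled arrays 1 to 4, on the log2 scale. The control arrays were close together, and NFAT5-labelled replicate 3 was the lowest. BMP4 is a ligand with high affinity for the type I receptors of the pathway and a classical inducer of the Id genes. Its log2 fold change was -0.33 ± 0.086 (SE), a level 0.798 times that of the control, with a 95% interval from -0.52 to -0.13, and it did not pass (adjusted p = 0.159 in limma). It was called when the variance was fitted with a trend and robustly (adjusted p = 0.0105).

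Bmp2, the closest relative of Bmp4 and a known inducer of bone formation, was read near the array median (3.76). Its levels were 3.93, 3.89, 3.94 and 4.01 on the control arrays and 3.80, 3.85, 3.55 and 3.52 on the NFAT5-labelled arrays. NFAT5-labelled replicates 3 and 4 were the low ones, and replicate 2 lay just below the lowest control array. The log2 fold change was -0.26 ± 0.096 (adjusted p = 0.286 in limma).

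Bmp6, a ligand of another branch of the family that is best known as an iron-regulated signal in liver endothelium, pointed the other way. It ranged from 5.89 to 6.25 on the control arrays and from 6.11 to 6.37 on the NFAT5-labelled arrays, so the groups overlapped. Control replicates 3 and 4 were low and replicates 1 and 2 high. The log2 fold change of 0.18 ± 0.11 did not pass (adjusted p = 0.546 in limma), and its 95% interval ran from -0.059 to 0.42.

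Bmpr2, which encodes the type II receptor that is dedicated to BMP ligands, was read within a narrow range. It lay between 8.58 and 8.65 on the control arrays and between 8.52 and 8.71 on the NFAT5-labelled arrays. Its log2 fold change was -0.0031 ± 0.071, with a 95% interval from -0.16 to 0.16. Changes within these bounds, in either direction, are compatible with the values of these arrays. The bounds are not a limit of detection, and a somewhat larger change could also go uncalled.

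**Figure D2:**
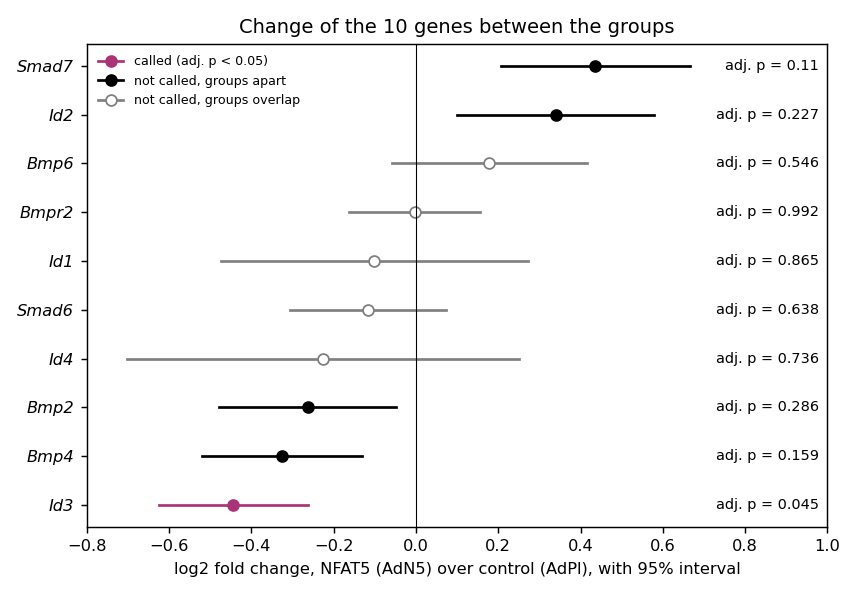
Log2 fold change of each of the 10 genes, NFAT5-labelled over control, with its 95% interval from limma and the adjusted p at the right. Purple marks the called gene (Id3), filled points mark genes whose groups do not overlap, and open points mark genes whose groups do. The interval of Id4, from -0.70 to 0.25, is the widest and that of Bmpr2 the narrowest.

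The 4 Id genes had fold changes of both signs, and 1 of them was called. Id3 was read at 7.32, 7.14, 7.28 and 7.14 on control arrays 1 to 4 and at 6.73, 6.87, 6.82 and 6.68 on NFAT5-labelled arrays 1 to 4. Each control array lay above each NFAT5-labelled array, and the SDs were similar, at 0.092 and 0.087. Id3 encodes an inhibitor of E proteins that is widely expressed in vascular smooth muscle and in B cells. It fell by 0.44 ± 0.081 on the log2 scale, to 0.735 of the control level (95% interval of the log2 fold change from -0.63 to -0.26, adjusted p = 0.0450 in limma). The gene ranked 170th by p among the 192 called genes, close to the threshold. Its call was lost without any 1 of the 8 arrays, with adjusted p-values from 0.0834 without NFAT5-labelled replicate 2 to 0.145 without control replicate 1, while the log2 fold change stayed between -0.48 and -0.41. It was also lost without control replicate 3 and NFAT5-labelled replicate 4, which stood at the positive end of the second principal component (adjusted p = 0.208, log2 fold change -0.39).

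Id2, whose product is known for its part in lymphoid and fat cell differentiation, lay above every control array on each NFAT5-labelled array. Its levels were 5.90, 5.61, 6.09 and 5.92 on the control arrays and 6.24, 6.24, 6.10 and 6.30 on the NFAT5-labelled arrays. Control replicate 3 almost met NFAT5-labelled replicate 3, and control replicate 2 was the lowest. The log2 fold change of 0.34 ± 0.11 had a 95% interval from 0.10 to 0.58 and did not pass (adjusted p = 0.227 in limma). The intervals of Id2 and Id3 lay on opposite sides of 0 and did not overlap. The difference between these changes was not tested.

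Id1, the Id gene most often used as a readout of BMP signalling, varied widely within both groups. It was read at 5.56, 5.79, 5.22 and 5.19 on the control arrays and at 5.07, 5.69, 5.25 and 5.34 on the NFAT5-labelled arrays. Replicate 2 was the highest of each group. The SDs were 0.29 and 0.26, and the spread around the group means was larger than that of 87.1% of all genes. The log2 fold change was -0.10 ± 0.17 with a 95% interval from -0.47 to 0.27 (adjusted p = 0.865 in limma), and it was 0.015 without control replicate 2. A fall of the size seen for Id3 lies within this interval, so the arrays do not tell whether Id1 changed as Id3 did.

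Id4, which is best known from the nervous system and the mammary gland, had the largest spread of the 10. Its levels were 4.26, 4.64, 5.18 and 4.93 on the control arrays and 4.25, 4.25, 4.81 and 4.81 on the NFAT5-labelled arrays. On the NFAT5-labelled arrays replicates 1 and 2 were low and replicates 3 and 4 high, and control replicate 1 was as low as the first pair. Spread around the group means exceeded that of 95.6% of all genes, compared with 15.1% for Id3 and 44.8% for Id2. The log2 fold change was -0.23 ± 0.21 (adjusted p = 0.736 in limma), and it ranged from -0.39 to -0.082 when 1 array was left out.

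The fold changes of the inhibitory Smads had opposite signs, and neither gene was called. Smad7 was read at 6.31, 6.55, 6.12 and 6.39 on the control arrays and at 6.80, 6.82, 6.85 and 6.63 on the NFAT5-labelled arrays. NFAT5-labelled replicate 4 was the lowest of its group and control replicate 2 the highest of the other, and the gap between them was narrow. The protein recruits Smurf ubiquitin ligases to activated receptors. The log2 fold change of 0.44 ± 0.10, a level 1.35 times that of the control, had a 95% interval from 0.21 to 0.67 and was close in size to that of Id3, but the gene did not pass (adjusted p = 0.110 in limma). It was called when only genes above the median level were tested (adjusted p = 0.0410) and with a variance trend and robust estimation (0.0145). Smad7 is induced by TGF-beta as well as by BMPs.

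Smad6, which acts mainly on BMP type I receptors, overlapped between the groups. It ranged from 5.95 to 6.16 on the control arrays and from 5.76 to 5.995 on the NFAT5-labelled arrays. NFAT5-labelled replicate 3 was the lowest array and control replicate 4 the highest. Its log2 fold change was -0.12 ± 0.085 with a 95% interval from -0.31 to 0.073 (adjusted p = 0.638 in limma). That interval ended below the lower bound of Smad7, and the difference between both changes was not tested.

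The rest of the pathway was described through 6 lists of 77 genes in all, of which 74 were measured and the others were not analysed here. Of these, 1 rose (Grem1), 1 fell (Bmp3) and 72 did not pass. Over all genes 0.777% were called, and 12.5% had an unadjusted p under 0.05 in limma. These lists, too, were chosen with earlier results of these data known, so such shares do not test them. Ligands outside the 10 genes were mostly dim, with 8 of 11 below the array median. Bmp3, a ligand known to oppose osteogenic BMPs, was read at 5.61, 5.58, 5.63 and 5.89 on the control arrays and at 4.93, 5.11, 4.45 and 4.91 on the NFAT5-labelled arrays. Control replicate 4 stood above the other control arrays, and NFAT5-labelled replicate 3 was the lowest. Bmp3 fell by 0.83 ± 0.14 on the log2 scale (adjusted p = 0.0337 in limma). This call held in 2 of 8 fits with 1 array left out, those without NFAT5-labelled replicate 2 or 3, with adjusted p-values up to 0.108 in the others and log2 fold changes from -0.91 to -0.69 over all 8, and it was lost without control replicate 3 and NFAT5-labelled replicate 4 together (0.168). At the other end of the ligand list Bmp8a was at 0.13, and the median of the list was -0.096.

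Of the 11 measured receptors and co-receptors 0 were called and 2 had an unadjusted p under 0.05, against 12.5% of all genes. The median log2 fold change of these 11 genes was -0.014. The groups did not overlap for 3 of them, with the type I receptor gene Bmpr1a (0.081) and the co-receptor gene endoglin (Eng) higher on every NFAT5-labelled array and the type I receptor gene Bmpr1b (-0.19) lower, against 8.78% of all genes. The list ran from -0.21 for the activin and BMP type II receptor gene Acvr2a to 0.12 for Eng. The 14 Smads and intracellular regulators gave 0 calls and 0 unadjusted p-values under 0.05. Their median was -0.030, with the ubiquitin ligase gene Nedd4l at -0.14 and the Smad corepressor gene Ski at 0.22.

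Secreted antagonists and binders held the largest change of the pathway lists. Grem1, encoding gremlin, which binds and blocks BMP2, BMP4 and BMP7, was read at 9.58, 9.65, 9.60 and 9.60 on the control arrays and at 10.63, 10.51, 10.66 and 10.58 on the NFAT5-labelled arrays. The groups were far apart compared with their SDs of 0.027 and 0.066. Grem1 rose by 0.99 ± 0.069 on the log2 scale (adjusted p = 6.56e-04 in limma) and kept its call in all 8 fits with 1 array left out. Of the 18 measured genes of this list 1 was called, against 0.777% of all genes. An unadjusted p under 0.05 was found for 7, against 12.5% of all genes. These 7 include Bmp1 and Tll1, which are not BMP antagonists. The BMP antagonist chordin (Chrd) lay at the opposite end, at -0.37 ± 0.079, without passing (adjusted p = 0.0848 in limma), and the median of the list was 0.046.

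Among 13 other BMP target genes 0 were called and 1 had an unadjusted p under 0.05, against 12.5% of all genes. This was Atoh8, a helix-loop-helix gene, read at 5.40, 5.24, 5.83 and 5.40 on the control arrays and at 5.19, 5.004, 4.83 and 4.92 on the NFAT5-labelled arrays. All NFAT5-labelled arrays were below all control arrays, as for 4.56% of all genes, and control replicate 3 was the highest. Its log2 fold change was -0.48 ± 0.13 (adjusted p = 0.170 in limma). The dim gene Tbx20 was at 0.15 at the other end of the list, and the median was 0.0026. The 7 measured genes of the E proteins, which are the partners of Id proteins, and of other helix-loop-helix factors gave 0 calls, with 0 unadjusted p-values under 0.05. They ran from -0.12 for Twist2 to 0.11 for the E protein gene Tcf4, with a median of 0.080.

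**Figure D3:**
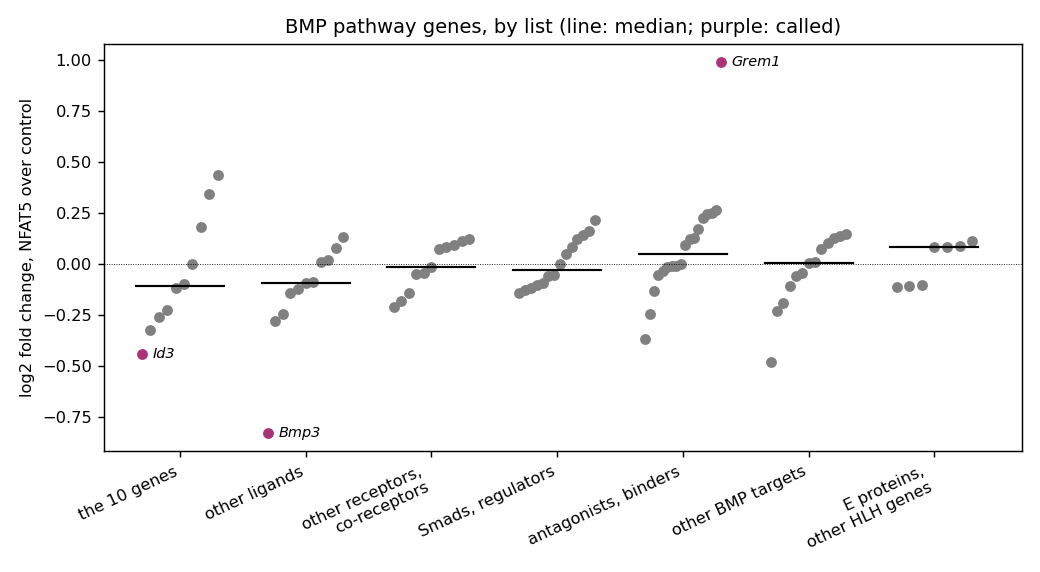
Log2 fold change, NFAT5-labelled over control, of the 10 genes and of the measured genes of 6 other lists of the pathway, with 1 point per gene, the median of each list as a line and called genes in purple. Grem1 at 0.99, Bmp3 at -0.83 and Atoh8 at -0.48, which was not called, lie outside the range of the 10 genes, which ends with Id3 at -0.44 and Smad7 at 0.44.

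**Figure D4:**
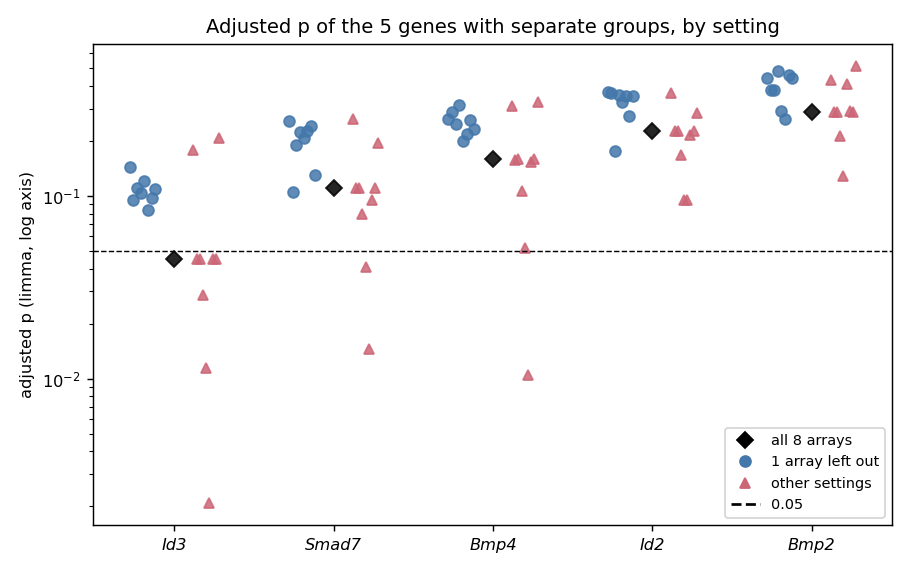
Adjusted p from limma on a log axis for the 5 genes whose groups did not overlap, with all 8 arrays (diamonds), with 1 array left out (circles) and under the other settings (triangles), and the threshold of 0.05 as a dashed line. All 8 circles of Id3 lie above the line and 7 of its 9 triangles below it, and triangles of Smad7 (2) and Bmp4 (1) lie below it too. Triangles for the second quantile normalisation, centring on array medians and averaged probe sets could hardly differ from the diamonds.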

How the data were processed

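Total RNA of 8 samples was labelled with biotin and measured on single-colour Affymetrix arrays, 4 per group, grouped by their titles. The deposited log2 values came from RMA (version not stated), per the submitters' processing notes. RMA quantile normalises the arrays, so a shift of all genes in 1 direction cannot be seen. The genome build behind the probe sets is not given in the sources used here. Of 25428 probe sets 24705 had 1 gene symbol in the supplied probe table, 0 had several and 723 were unnamed. Where a symbol had more than 1 probe set the brightest was used, which left 24704 genes.

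Groups were compared in R 4.3.3 with limma 3.58.1 (moderated two-sided tests from lmFit with eBayes, no covariates), fitted and Benjamini-Hochberg adjusted over all genes. Errors of fold changes are standard errors, and errors of levels are SDs. The script was tested on simulated data. Precision is limited by the number of arrays: over all genes, the median SE of a fold change was 0.11 (log2). Arrays correlated at 0.989 to 0.993 across genes, and no batch is given in the sources used here.

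The 10 genes and all lists were chosen with earlier results of these data known. The named genes were the 10, Nfat5, the called genes of each pathway list and the gene at either end of it. Other settings tried were each array left out, a replicate block, array weights, a robust variance trend, a second quantile normalisation, centring on array medians, expression filters at the median and lower quartile, averaged probe sets, and an adjusted p under 0.01. The fit without control replicate 3 and NFAT5-labelled replicate 4 was added after seeing the data.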

Additional observations from a re-analysis of the deposited data

Results flagged for a closer look

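The Bmp3 level of control replicate 4 (5.89) stood apart from the next control array (5.63), with a gap of 0.832 of the range of the 4 control arrays, above Dixon's critical value for 4 samples. It was the only such case among 26 groups of 4 arrays, 2 for each of 13 genes (the 10 genes, Nfat5, Bmp3 and Grem1), where chance gives about 1 in 20. Without this array the log2 fold change of Bmp3 was -0.76 (adjusted p = 0.108 in limma).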

How the results depend on the processing

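Of the 170 fits of the 10 genes under other settings, 152 kept direction and side of the threshold, 10 lost a call (all Id3), 3 gained one and 5 changed sign. The 152 include all fits with the second quantile normalisation, centring on array medians and averaged probe sets. These settings could hardly change a value. The deposited arrays already shared nearly the same distribution, and each of the 10 genes had 1 probe set. With 1 array left out Bmpr2 ranged from -0.033 to 0.028 and Id1 from -0.22 to 0.015. The sign changes were Bmpr2 at 0.0037 and 0.0063 without control replicates 1 and 2, at 0.028 without NFAT5-labelled replicate 4 and at 0.014 without control replicate 3 and NFAT5-labelled replicate 4, and Id1 at 0.015 without control replicate 2. The count of the 10 genes called lower, 1 with all arrays, was 0 in all 8 fits with 1 array left out, 0 at an adjusted p under 0.01, 0 without both arrays named above and 2 with a variance trend and robust estimation. The count called higher, 0 with all arrays, was 1 with the filter at the median and 1 with a variance trend and robust estimation. Over all genes 192 calls became 56 to 88 with 1 array left out, 30 without both arrays, 42 at an adjusted p under 0.01, 497 with the filter at the median and 781 with a variance trend and robust estimation. The labels do not say whether the replicate numbers pair the samples. Over all genes, deviations of same-numbered arrays from their group means correlated at -0.079 to 0.055, which cannot decide it. With the replicate number as a block 14 genes were called over all genes and 0 of the 10 (Id3 adjusted p = 0.178), and the call of Bmp3 was lost (adjusted p = 0.115, log2 fold change -0.83 as without the block). Fewer samples or degrees of freedom enter the fits with arrays left out or with the block, and the cause of the other shifts was not tested. RMA can compress the differences of dim genes, such as most ligands outside the 10. Whether it did so here was not tested.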
